A study of Mus musculus with 10 samples.

Results

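The epicardium is the mesothelial sheet that covers the heart. During development some of its cells undergo epithelial-to-mesenchymal transition (EMT), leave the sheet and become epicardium-derived cells (EPDCs), which give rise to fibroblasts and mural cells. ATAC-seq uses the Tn5 transposase to mark open chromatin, and open sites away from promoters include enhancers and other cis-regulatory elements (CREs). The regions described here are the distal sites that were open in epicardium at both ends of its embryonic life and were not detected in EPDCs. They were chosen by these calls alone: a region was kept if it lay more than 1 kb from every transcription start site (TSS), was called a peak in all 6 epicardial lists and in none of the 3 EPDC lists. Of 154886 merged regions on chromosomes 1 to 19, 126783 were distal and 3040 met the rule. These made up 2.40% of all distal regions and 8.60% of the 35359 distal regions that all 6 epicardial lists called. They are called epicardium-only regions below. Since the calls selected them, the contrast of epicardium with EPDC is a description here and was not tested.

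The lists came from C57BL/6J embryos carrying Rosa26tdTomato and Wt1CreERT2/+. Tamoxifen at E9.5 labelled cells that expressed Wt1, and their descendants, so every group shares the label and each EPDC descends from a Wt1-expressing cell of that day. Epicardium was sorted as CD31-tdTomato+PDPN+ cells at E11.5 (3 libraries, 6 pooled hearts each) and at E17.5 (3 libraries, 4 pooled hearts each). EPDCs were sorted as CD31-tdTomato+PDPN- cells at E12.5 (1 library) and E13.5 (2 libraries, 1 of them joined from 2 technical replicates), and 40000 to 50000 cells entered each library. The gate thus rested on PDPN, a surface glycoprotein of mesothelial cells, and the EPDC stages lay between the epicardial stages without matching either. In bulk libraries, fewer cells with an open site and a less open site in each cell cannot be told apart.

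Each list held 73606 to 106836 intervals on these chromosomes. The lists differed in peak significance: the median −log10 p of an interval was 45.8 in E13.5 EPDC replicate 2 and between 21.5 and 29.0 in the other 8. Each of the 3 EPDC lists held 3 to 7 mitochondrial intervals and 58 to 80 on unplaced sequence, and the 6 epicardial lists held 0 of either, so that the lists of the contrasted cell types may not have been filtered alike. The part of this in the calls was not tested. Promoters were read within 500 bp of a TSS to check the labels. All 8 mesothelial promoters examined, among them Wt1, Tbx18 and Upk3b, were called in the 6 epicardial lists, and 7 of these were also called in all 3 EPDC lists. All 7 mesenchymal promoters were called in the EPDC lists. Those of Col1a1, Col3a1, Pdgfra, Pdgfrb, Lum and Dcn were also called in all 6 epicardial lists. Postn was called in epicardium at E17.5 but not at E11.5. The mural promoters of Acta2, Tagln, Myh11 and Rgs5 were called in all 9 lists, so most of these promoters did not separate the cell types. The promoters of Pecam1, Cdh5, Tie1 and Emcn (endothelium) and of Ptprc, Spi1, Csf1r and Cx3cr1 (blood) were called in no list, whereas those of Kdr and Tek were called in all 9. Of 6 cardiomyocyte promoters, Tnnt2 was called in all 9 lists and Myh6 in none. Myh7 was called in all 6 epicardial and no EPDC list, Nppa in 4 epicardial lists and Ttn in 1, and Actc1 in the E11.5 and EPDC lists.

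The sequences of 14 regions are shown first, in mm10 coordinates and on the plus strand, as the strongest epicardial summit and the 100 bases on each side of it. Capitals mark exact matches, on either strand, to the 26 motifs searched. The first set belongs to regions whose nearest protein-coding TSS is that of a mesothelial or junction gene, because the results return to the genes of these lists, and holds the 8 strongest by mean percentile when each of the 14 genes is given its strongest region. Bnc1 and Bnc2 encode basonuclins, Lrrn4 a mesothelial membrane protein, Pkp2 and Jup the desmosomal proteins plakophilin-2 and plakoglobin, Pard6b a polarity protein, Lmo7 a protein of the apical junction, and Cdh1 E-cadherin. RNA was not measured in these libraries, so an open region near a gene does not show that the gene is expressed in epicardium.
Bnc1, chr7:82033353-82033553: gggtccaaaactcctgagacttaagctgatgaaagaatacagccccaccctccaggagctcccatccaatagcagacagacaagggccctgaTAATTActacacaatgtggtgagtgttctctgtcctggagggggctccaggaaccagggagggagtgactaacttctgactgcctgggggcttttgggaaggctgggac
Pkp2, chr16:16217033-16217233: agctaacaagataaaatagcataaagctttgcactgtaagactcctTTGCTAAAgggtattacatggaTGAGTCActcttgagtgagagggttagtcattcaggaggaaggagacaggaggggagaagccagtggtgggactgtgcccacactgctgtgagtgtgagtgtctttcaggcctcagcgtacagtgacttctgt
Pard6b, chr2:168085611-168085811: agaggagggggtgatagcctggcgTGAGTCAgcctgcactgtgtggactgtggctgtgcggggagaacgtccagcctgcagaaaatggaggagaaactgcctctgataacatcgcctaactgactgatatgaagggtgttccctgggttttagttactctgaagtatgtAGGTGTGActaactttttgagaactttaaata
Lrrn4, chr2:132893842-132894042: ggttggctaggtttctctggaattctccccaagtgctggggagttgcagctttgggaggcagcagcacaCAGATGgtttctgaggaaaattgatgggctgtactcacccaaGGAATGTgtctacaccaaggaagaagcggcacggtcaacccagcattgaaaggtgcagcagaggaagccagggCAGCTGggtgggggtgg
Jup, chr11:100393929-100394129: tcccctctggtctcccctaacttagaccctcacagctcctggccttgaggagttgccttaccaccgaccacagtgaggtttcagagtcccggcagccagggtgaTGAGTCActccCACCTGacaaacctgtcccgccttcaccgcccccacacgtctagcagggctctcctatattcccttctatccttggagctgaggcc
Lmo7, chr14:101892012-101892212: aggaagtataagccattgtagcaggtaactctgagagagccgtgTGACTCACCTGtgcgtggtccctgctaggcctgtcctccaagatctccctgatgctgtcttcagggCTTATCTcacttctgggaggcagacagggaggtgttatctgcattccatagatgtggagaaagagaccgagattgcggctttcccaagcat
Bnc2, chr4:84137683-84137883: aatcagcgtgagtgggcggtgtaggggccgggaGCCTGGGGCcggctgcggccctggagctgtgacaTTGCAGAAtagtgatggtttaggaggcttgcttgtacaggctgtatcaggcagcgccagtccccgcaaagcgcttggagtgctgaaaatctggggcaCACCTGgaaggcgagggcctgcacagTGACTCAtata
Cdh1, chr8:106632683-106632883: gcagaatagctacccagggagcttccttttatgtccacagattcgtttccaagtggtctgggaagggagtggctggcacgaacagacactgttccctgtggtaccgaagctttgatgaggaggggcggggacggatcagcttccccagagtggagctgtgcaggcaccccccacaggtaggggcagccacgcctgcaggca

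Of these 8 windows, 5 (Pkp2, Pard6b, Jup, Lmo7 and Bnc2) held the AP-1 motif TGAGTCA. Over all 14 genes it stood in 7, the others being Gpm6a and Ocln, beside 28.75% of all epicardium-only regions. AP-1 was followed or overlapped by the E-box CAGGTG (read as CACCTG on the other strand) at Jup, Lmo7 and Ocln, whose window is not shown. At Lmo7 and Ocln the motifs share bases. The Lrrn4 window held the TEAD motif GGAATGT, and the Cdh1 window held none of the 26. The next windows are those of the strongest epicardium-only regions, near Prkch and Nr2f2, which both hold AP-1, as do 5 of the 10 strongest.
Prkch, chr12:73725882-73726082: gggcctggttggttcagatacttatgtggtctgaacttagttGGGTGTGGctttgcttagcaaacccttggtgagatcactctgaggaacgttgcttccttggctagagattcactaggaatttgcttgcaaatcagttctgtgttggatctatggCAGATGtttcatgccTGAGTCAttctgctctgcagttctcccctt
Nr2f2, chr7:70429420-70429620: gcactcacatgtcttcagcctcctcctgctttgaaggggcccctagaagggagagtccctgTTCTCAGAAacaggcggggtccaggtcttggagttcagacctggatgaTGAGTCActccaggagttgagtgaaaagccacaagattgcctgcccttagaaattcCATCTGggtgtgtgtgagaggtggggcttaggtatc

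The last windows are those of the largest rises (Afap1l2 and Eif3k) and the largest falls (Galc and Grk4) from E11.5 to E17.5. Afap1l2 holds the KLF motif CCACACCC and AP-1, and the windows of Eif3k, Galc and Grk4 hold no AP-1. Of the 5 largest rises and 5 largest falls, AP-1 stood at Afap1l2 and Zfp652 among the rises and at Dclk3 among the falls.
Afap1l2, chr19:56935203-56935403: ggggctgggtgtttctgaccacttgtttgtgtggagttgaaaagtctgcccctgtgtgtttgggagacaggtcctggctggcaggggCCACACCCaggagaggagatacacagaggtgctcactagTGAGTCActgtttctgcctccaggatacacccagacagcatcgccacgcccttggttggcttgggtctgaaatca
Eif3k, chr7:28969990-28970190: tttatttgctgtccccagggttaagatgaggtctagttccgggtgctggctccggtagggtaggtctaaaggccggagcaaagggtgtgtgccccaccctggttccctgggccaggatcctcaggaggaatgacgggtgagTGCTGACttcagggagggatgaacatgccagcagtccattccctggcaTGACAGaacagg
Galc, chr12:97789246-97789446: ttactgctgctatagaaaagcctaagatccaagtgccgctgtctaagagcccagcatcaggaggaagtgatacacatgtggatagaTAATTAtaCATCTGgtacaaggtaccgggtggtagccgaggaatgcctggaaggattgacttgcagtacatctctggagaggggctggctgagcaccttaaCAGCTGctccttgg
Grk4, chr5:34749476-34749676: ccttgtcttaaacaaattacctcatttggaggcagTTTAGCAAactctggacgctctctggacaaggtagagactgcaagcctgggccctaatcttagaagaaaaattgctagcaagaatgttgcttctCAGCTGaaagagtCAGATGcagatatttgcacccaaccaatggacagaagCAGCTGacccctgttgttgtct

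Epicardium-only regions were weaker peaks than the distal regions called in all 9 lists. Strength is given as the rank percentile of a peak, by −log10 p, within its own list, so that 100 is the strongest. The median percentile of the 3040 regions was 34.1, 41.5 and 39.3 in the 3 E11.5 libraries and 38.7, 52.6 and 46.1 in the 3 E17.5 libraries. For the 26671 shared regions these medians were 68.6, 71.9 and 71.3 in the E11.5 libraries and 56.2, 63.7 and 59.4 in those of E17.5. The gap between the sets was thus wider in every E11.5 library than in any E17.5 library. A call by every epicardial list and by no EPDC list used these peak strengths indirectly, and the gap was not tested.

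**Figure D1:**
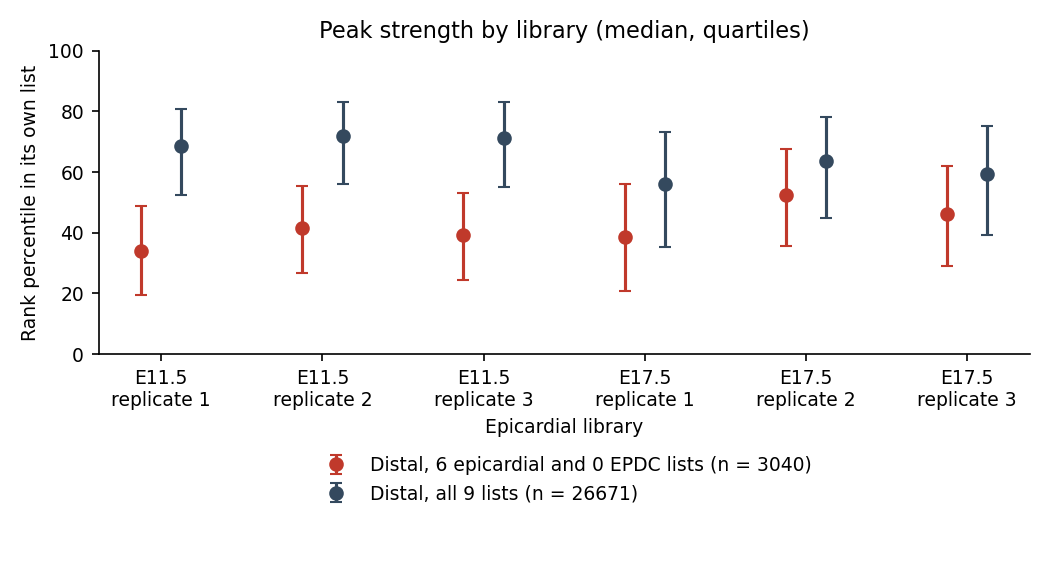
Rank percentile (0 to 100, by −log10 p within each list) of epicardium-only regions (red) and of distal regions called in all 9 lists (dark) in each epicardial library; points are medians over regions and bars the quartiles. Red medians run from 34.1 to 52.6 and dark medians from 56.2 to 71.9.

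Few of them were strong everywhere. Only 5 of 3040 lay above percentile 75 in all 6 lists, and 254 (8.36%) lay above percentile 50 in all 6. The mean percentile over the 6 libraries had a median of 41.2 and ran from 6.59 to 84.6. Within a stage, the SD of a region's percentile over its 3 libraries had a median of 7.62 points at E11.5 and 8.20 points at E17.5. Between 16 and 109 regions per library had a −log10 q under 3, the largest number in E11.5 replicate 1. These were 0.526% to 3.59% of epicardium-only regions, against 0.172% to 1.01% of the shared regions over the same libraries. A −log10 q of at least 5 in all 6 lists was reached by 2143 of the 3040.

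Regions kept outside the rule by exactly 1 EPDC list came mostly from the EPDC list with the highest median −log10 p. Of 2406 distal regions that all 6 epicardial lists and exactly 1 EPDC list called, 1650 (68.6%) were called by E13.5 EPDC replicate 2, 677 by E12.5 EPDC and 79 by E13.5 EPDC replicate 1. Those 1650 were faint in that list, with a median percentile of 16.6 and a median fold enrichment over background of 3.28. A further 2022 regions were called by 5 epicardial and no EPDC list, and 825 of these (40.8%) missed E17.5 replicate 1, the shortest list. A region without a call may still be open to some degree. With E13.5 EPDC replicate 2 left out of both the merging and the rule, 4706 regions met it.

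The regions were narrower than shared regions, which joined the overlapping intervals of more lists and were stronger peaks. Median width was 627 bp for epicardium-only and 921 bp for shared regions. It was 602 bp for distal regions called by every EPDC list and no epicardial list, which joined fewer lists. Of the epicardium-only regions, 1697 (55.8%) had 1 summit in every epicardial list, against 45.6% of shared regions. The part of list number and peak strength in these differences was not tested. By strongest summit, 1689 epicardium-only regions (55.6%) lay in introns, 1216 (40.0%) between genes and 135 (4.44%) in exons. For shared regions these shares were 50.6%, 44.2% and 5.26%. The nearest protein-coding TSS was at a median of 22.1 kb for epicardium-only and 22.4 kb for shared regions. Distance to an EPDC peak was measured for epicardium-only regions alone, without a comparison set. Such a peak lay within 5 kb of 1591 of them (52.3%) and within 20 kb of 2725 (89.6%), at a median of 4.68 kb. They were spread over all 19 chromosomes, making up between 7.32% (chromosome 10) and 9.80% (chromosome 9) of the distal regions called by the 6 epicardial lists.

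Promoters, which the rule did not use, seldom followed the same pattern. The 3040 regions had 2328 different nearest protein-coding genes, and the promoters of 1970 of these genes (84.6%) were called in all 9 lists. The share was 78.9% for the 9950 genes nearest to any distal region of the 6 epicardial lists and 65.6% for all 20780 protein-coding genes. A promoter called in all 6 epicardial and no EPDC list belonged to 6 of the 2328 genes (0.258%) and to 56 of all 20780 (0.269%). These 6 genes, Sh3rf2, Fat2, Asprv1, Trim29, Tigit and Lctl, were picked by their values. Sh3rf2, an E3 ubiquitin ligase, had 3 epicardium-only regions, and Fat2, a protocadherin of epithelia, had 1.

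Stage within the epicardium did not define the set, but the rule was not independent of it. It required a call at both stages, and it removed regions called in EPDCs of E12.5 and E13.5, stages nearer to E11.5 than to E17.5. The share of rises in the set is therefore a description, and the effect of the rule on it was not tested. Each region that all 6 epicardial libraries called, distal or not, was tested between E11.5 and E17.5 by limma on log2 of its −log10 p after quantile normalization, with Benjamini-Hochberg adjustment over 53848 regions. A log2 change here is one of peak significance and not of accessibility itself. Of the 3040 epicardium-only regions, 1424 (46.8%) were higher and 214 (7.04%) lower at E17.5, at an adjusted p under 0.05. Over all 53848 regions tested, 23.5% were higher and 23.0% lower. The median log2 change was 0.66 for epicardium-only regions and 0.01 for all regions tested. On the rank percentile instead, 913 (30.0%) were higher and 359 (11.8%) lower, against 11.52% and 32.8% of all regions, so that 71.8% of the calls among epicardium-only regions were rises, where the main scale gave 86.9%.

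The excess of rises fell with the number of EPDC lists that called a region. Among distal regions of the 6 epicardial lists, 37.2% were higher at E17.5 where 1 EPDC list called them, 30.1% where 2 did and 19.1% where all 3 did. The shares that were lower went the other way, at 12.6%, 14.53% and 32.1%, and the median log2 changes were 0.38, 0.19 and -0.17. These shares are descriptions, since no test compared the sets. Strength differed between the sets, so the counts were also read within 4 bins of equal size by the mean level over all tested regions. In the weakest bin, 39.0% of 1968 epicardium-only regions and 22.5% of all regions were higher at E17.5. The next bin gave 59.5% of 893 and 25.3%, and the one above it 69.7% of 178 and 26.3%. Only 1 epicardium-only region, near Prkch, reached the strongest bin. With E13.5 EPDC replicate 2 left out of the rule alone and the merged regions kept as they were, an alternative chosen after the data were seen, 2092 of 4690 regions (44.6%) were higher and 350 (7.46%) lower.

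**Figure D2:**
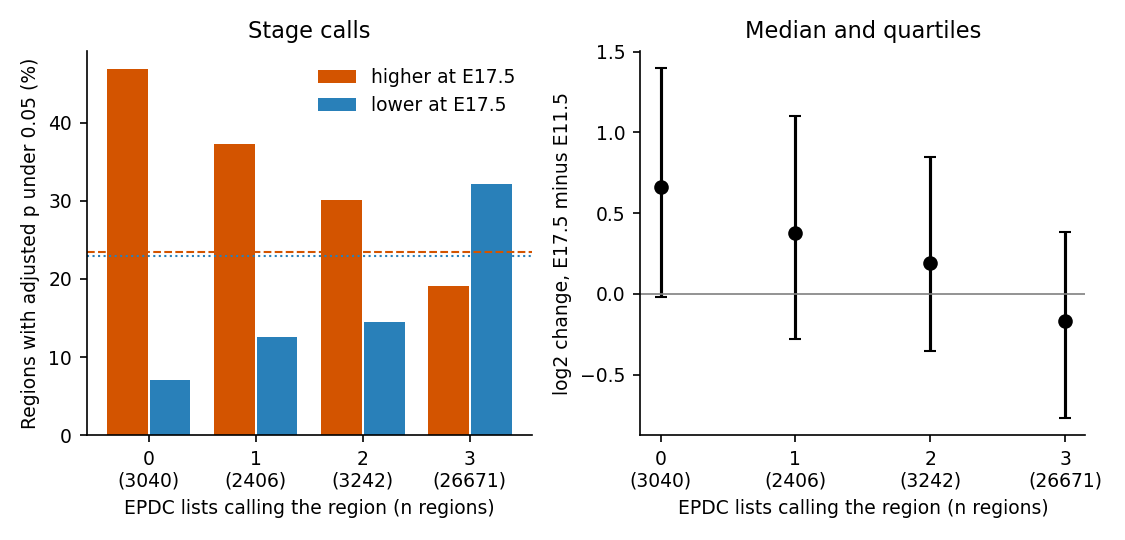
Left, share (%) of distal regions of the 6 epicardial lists that were higher (orange) or lower (blue) at E17.5 than at E11.5 by limma, by the number of EPDC lists calling them, with dashed and dotted lines at the shares over all 53848 regions tested (23.5% and 23.0%). Right, median and quartiles of the log2 change in −log10 p; the median runs from 0.66 with 0 EPDC lists to -0.17 with 3.

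The largest rises went from the foot of the E11.5 lists to near the top of the E17.5 lists. They were chosen among calls without overlap in percentile between the stages. A region in an intron of Afap1l2, an actin-associated adaptor, at chr19:56934861-56935601, had percentiles of 28.3, 4.17 and 4.73 in the E11.5 libraries and 87.8, 92.5 and 90.3 in the E17.5 libraries. Its log2 change was 4.57 ± 0.30 (SE), adjusted p = 8.24e-14. A region 4.25 kb downstream of the start of Eif3k, a subunit of the translation initiation factor eIF3, at chr7:28969594-28970583, had percentiles of 7.16, 10.95 and 4.62 in the E11.5 libraries and 82.3, 85.8 and 85.2 in the E17.5 libraries, and the stages did not overlap for either region. The other 3 largest rises were near Kat14, a histone acetyltransferase, Slc39a14, a metal ion transporter, and Zfp652, a zinc finger protein, with log2 changes of 4.24, 4.11 and 4.05.

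The largest falls, also chosen among calls without overlap between the stages, were smaller. A region 427 kb from the nearest protein-coding TSS, that of Galc, the lysosomal galactosylceramidase, at chr12:97788966-97789712, had percentiles of 79.0, 82.6 and 87.0 in the E11.5 libraries and 19.7, 20.8 and 23.1 in the E17.5 libraries. Its log2 change was -2.82 ± 0.27 (SE), adjusted p = 1.77e-10. An intronic region of Grk4, a G protein-coupled receptor kinase, at chr5:34749164-34749940, had percentiles of 68.3, 67.1 and 72.4 in the E11.5 libraries and 6.40, 10.04 and 6.94 in the E17.5 libraries. For both, the lowest E11.5 value exceeded the highest E17.5 value. Regions near Cd109, a membrane protein that binds TGF-β, Dclk3, a kinase, and Brinp1 made up the other 3, with log2 changes of -2.33, -2.31 and -2.31.

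Over all epicardium-only regions, 46.8% were higher at E17.5 and 7.04% lower, and 69.7% of the 178 in the bin below the strongest were higher. Of the 10 strongest epicardium-only regions, 8 were higher at E17.5, 2 did not pass and 0 were lower. The first by mean percentile lay in an intron of Prkch, protein kinase C eta, at chr12:73725634-73726459, with percentiles of 83.6, 79.7 and 79.4 in the E11.5 libraries and 85.6, 89.6 and 89.7 in the E17.5 libraries. Every E17.5 value was above every E11.5 value, and the log2 change was 0.92 ± 0.17 (SE), adjusted p = 3.25e-05. The second lay 62.4 kb upstream of Nr2f2, which encodes the nuclear receptor COUP-TFII, at chr7:70429158-70429792, with percentiles of 82.8, 86.8 and 83.8 in the E11.5 libraries and 77.6, 83.9 and 84.3 in the E17.5 libraries. Here the stages overlapped and the change of 0.10 did not pass (adjusted p = 0.642). Nr2f2 had 6 epicardium-only regions of 28 distal regions nearest to it.

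Of the other 8 strongest, 7 were higher at E17.5 and that of Ube2q2 did not pass (log2 change 0.20, adjusted p = 0.361). The widest step was at Tgfbr1, the type I TGF-β receptor, where an intronic region at chr4:47406921-47407817 had percentiles of 62.3, 73.3 and 67.02 in the E11.5 libraries and 92.3, 95.9 and 91.3 in the E17.5 libraries. Its log2 change was 2.28 ± 0.18 (SE), adjusted p = 4.11e-12, and the stages did not overlap. A region 21.02 kb upstream of Fzd10, a Wnt receptor, had percentiles of 69.5, 73.5 and 68.4 in the E11.5 libraries and 87.3, 88.9 and 88.7 in the E17.5 libraries, again without overlap. The remaining 5 lay near Gdap2, Ttc7b, Dnmbp, Mgea5 and Galnt9, with log2 changes from 0.68 to 1.43. On the rank percentile the calls at Gdap2 (adjusted p = 0.161) and Dnmbp (0.0758) were lost, and that at Gdap2 also on fold enrichment (0.133).

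Mesothelial identity genes had a share of epicardium-only regions close to that of all genes. Of 148 distal epicardial regions nearest to the 20 genes of this list, 11 (7.43%) were epicardium-only, beside 8.60% over all genes, and they were spread over 8 genes. Of these 11, 6 were higher at E17.5 and 1 was lower. Stage counts of this and the following lists stand beside 46.8% higher and 7.04% lower over all epicardium-only regions, and these 11 were near those shares. Nearest TSS is a position and not evidence of a target.

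Bnc1 had 3 of its 10 distal regions in the set. The strongest, 40.8 kb upstream at chr7:82033076-82033854, had percentiles of 78.0, 74.6 and 56.8 in the E11.5 libraries and 66.8, 80.3 and 76.9 in the E17.5 libraries. The stages overlapped, and the log2 change of 0.64 ± 0.25 (SE), adjusted p = 0.0323 by limma, was lost without any 1 of E11.5 replicate 3 and E17.5 replicates 2 and 3, on the rank percentile and when regions called by at least 3 of 6 libraries were tested, at adjusted p from 0.100 to 0.498, and it turned to -0.23 on fold enrichment. At Lrrn4, a region 12.7 kb upstream at chr2:132893542-132894757 had percentiles of 41.1, 51.8 and 16.4 in the E11.5 libraries and 68.7, 79.1 and 78.7 in the E17.5 libraries. All E17.5 values were higher, and the log2 change was 2.33 ± 0.30 (SE), adjusted p = 8.16e-08. An intronic region of Gpm6a, a neuronal and mesothelial membrane glycoprotein, at chr8:54967888-54968371 had percentiles of 26.8, 22.3 and 26.8 in the E11.5 libraries and 41.9, 56.5 and 59.8 in the E17.5 libraries, also without overlap, and its log2 change was 1.61 ± 0.31 (SE), adjusted p = 6.52e-05.

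Maf was the only gene of the list whose region was lower at E17.5. This region, 351 kb from the TSS of the bZIP transcription factor, at chr8:115355497-115356392, had percentiles of 53.2, 40.3 and 55.5 in the E11.5 libraries and 6.40, 17.8 and 19.8 in the E17.5 libraries. Its log2 change was -1.25 ± 0.34 (SE), adjusted p = 0.00299 by limma, and the call was lost (adjusted p = 0.0525) when regions called by at least 3 of 6 libraries were tested. The strongest regions nearest to Tbx18 (a T-box factor, 209 kb), Bnc2 (154 kb), Sema3d (a semaphorin, 58.7 kb) and Sulf1 (a heparan sulfate sulfatase, 50.9 kb) did not pass, with log2 changes of 0.08, 0.50, -0.39 and 0.63. No region of the set was nearest to Wt1, Tcf21, Upk3b or Aldh1a2, and none of 9 distal regions nearest to the 4 simple epithelial keratins was in it, although 2 of 26 (7.69%) within 100 kb of these genes were.

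**Figure D3:**
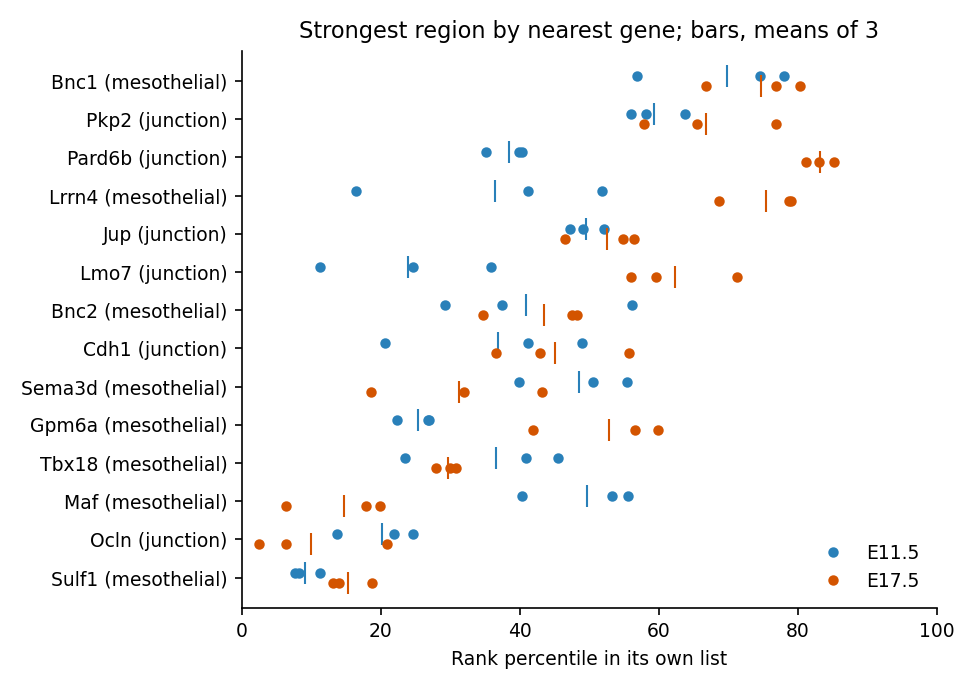
Rank percentile of the strongest epicardium-only region nearest to each mesothelial or junction gene, in the 3 E11.5 (blue) and 3 E17.5 (orange) libraries; vertical ticks are the means of 3. The stages separate at Pard6b (35.1 to 40.3 against 81.2 to 85.3), Lrrn4, Lmo7, Gpm6a, Maf and Sulf1, and overlap at the other 8 genes.

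Junction genes had 8 epicardium-only regions among 75 (10.7%), at 6 genes. Of these 8, 4 were higher at E17.5 and 0 were lower, again near the shares of the whole set. The clearest was an intronic region of Pard6b, 4.54 kb from the TSS at chr2:168085546-168086224, with percentiles of 40.3, 39.8 and 35.1 in the E11.5 libraries and 83.1, 85.3 and 81.2 in the E17.5 libraries. Its mean was 38.4 ± 2.89 (SD, n = 3) in E11.5 and 83.2 ± 2.04 (SD, n = 3) in E17.5 libraries, and the log2 change was 2.74 ± 0.24 (SE), adjusted p = 2.98e-11. An intronic region of Lmo7, at chr14:101891916-101892835, had percentiles of 11.3, 24.6 and 35.8 in the E11.5 libraries and 55.9, 71.3 and 59.6 in the E17.5 libraries. The stages again did not overlap, and the log2 change was 2.15 ± 0.31 (SE), adjusted p = 7.47e-07.

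At the desmosomal genes Pkp2 and Jup the stages overlapped. A region 3.70 kb into Pkp2, at chr16:16217022-16217419, had percentiles of 58.1, 63.8 and 56.0 in the E11.5 libraries and 57.9, 76.8 and 65.5 in the E17.5 libraries. The log2 change of 0.81 ± 0.25 (SE), adjusted p = 0.00687 by limma, was lost without E17.5 replicate 2 (adjusted p = 0.0808), on the rank percentile (0.309) and on fold enrichment (0.0514). A region 3.61 kb into Jup, at chr11:100393730-100394138, had percentiles of 47.3, 52.1 and 49.1 in the E11.5 libraries and 46.5, 56.5 and 54.8 in the E17.5 libraries and did not pass (adjusted p = 0.0915). An intronic region of Cdh1, at chr8:106632575-106633698, had percentiles of 20.6, 41.1 and 48.9 in the E11.5 libraries and 36.6, 55.6 and 42.9 in the E17.5 libraries, and its call at an adjusted p of 0.0479 by limma was lost without any 1 of E11.5 replicates 1 and 2 and E17.5 replicates 2 and 3, at adjusted p from 0.0704 to 0.254, and on the rank percentile and on scores scaled to their sum, at 0.431 and 0.121. The only region nearest to Ocln, which encodes the tight junction protein occludin, was faint, with percentiles of 21.9, 24.6 and 13.7 in the E11.5 libraries and 6.40, 2.40 and 20.8 in the E17.5 libraries.

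By nearest gene, genes of mesenchyme had the lowest share among the lists with any member, but not within 100 kb of a TSS, where 9 of 152 (5.92%) of their regions and 6 of 120 (5.00%) of those of the Hippo pathway were epicardium-only. For EMT factors and mesenchyme, 4 of 144 regions (2.78%) were epicardium-only, near Fn1, Tnc, Cdh11 and Col1a1, and all 4 were higher at E17.5. The strongest, 270 kb upstream of Fn1 (fibronectin), whose call was lost on the rank percentile (adjusted p = 0.193), had percentiles of 67.9, 69.3 and 64.8 in the E11.5 libraries and 70.1, 80.5 and 72.5 in the E17.5 libraries. Smooth muscle and pericyte genes had 3 of 34 (8.82%), 2 near Myocd (a coactivator of smooth muscle genes) and 1 near Myh11, all 3 higher at E17.5. The stronger of the Myocd regions lay 1.01 kb upstream, just past the 1 kb limit, with percentiles of 61.4, 70.3 and 59.5 in the E11.5 libraries and 71.9, 78.6 and 75.8 in the E17.5 libraries.

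By nearest gene, secreted signals had the highest share, at 17 of 141 (12.1%), of which 5 were nearest to Slit3, 2 each to Sema3d, Igf1, Cxcl12, Vegfa and Fgf9, and 1 each to Slit2 and Fgf10. At E17.5, 7 of the 17 were higher. The strongest was 52.0 kb upstream of Igf1, a growth factor, with percentiles of 47.7, 40.3 and 62.9 in the E11.5 libraries and 71.7, 76.0 and 75.04 in the E17.5 libraries and no overlap. Retinoic acid genes had 7 of 81 (8.64%), 4 of them near Rxra, a retinoid receptor, and 5 of the 7 were higher. Hippo pathway genes had 4 of 63 (6.35%), near Yap1, Wwtr1, Tead1 and Vgll3, and 1 was higher.

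Lists for other cell types gave shares of the same range. Endothelial genes had 6 of 57 (10.5%), near Kdr, Cdh5 and Pecam1, of which 5 were higher and 1 lower at E17.5, although CD31 (Pecam1) was gated out. The strongest, 166 kb upstream of Cdh5, had percentiles of 54.4, 66.5 and 62.9 in the E11.5 libraries and 77.1, 79.7 and 76.1 in the E17.5 libraries. A region in Pecam1, 2.97 kb from a TSS, whose call was lost on the rank percentile (adjusted p = 0.0921), had percentiles of 40.0, 50.03 and 55.3 in the E11.5 libraries and 55.1, 68.0 and 61.9 in the E17.5 libraries. The promoters of Cdh5 and Pecam1 were called in no list. Blood genes had 3 of 38 (7.89%), near Runx1 and Cx3cr1, and cardiomyocyte genes 1 of 18 (5.56%). That region, 1.17 kb from the Myh6 TSS, was faint at both stages, with percentiles of 15.5, 31.8 and 17.2 in the E11.5 libraries and 9.70, 7.95 and 9.22 in the E17.5 libraries. The Myh6 promoter was called in no list and that of its neighbour Myh7 in all 6 epicardial and no EPDC list. The part of other cell types in these calls was not tested.

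**Figure D4:**
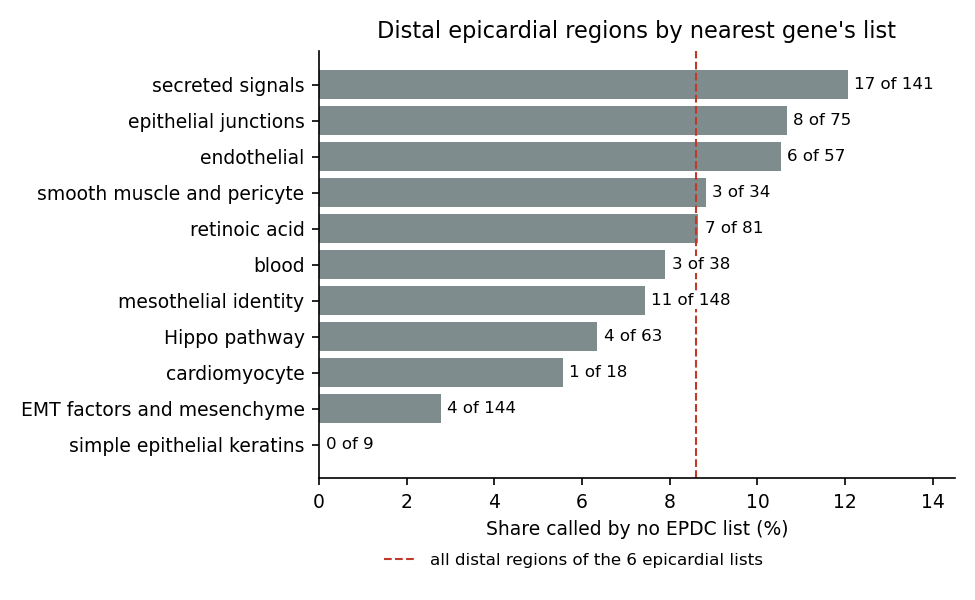
Share (%) of distal regions of the 6 epicardial lists that no EPDC list called, by the list to which the nearest protein-coding gene belongs, with counts; the dashed line is the share over all genes (8.60%). Shares run from 0 of 9 for keratins (2 of 26 within 100 kb) to 17 of 141 (12.1%) for secreted signals.

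Epicardium-only regions lay further from others of their set than regions of larger sets did, and the part of set size was not tested. Of the 26671 shared regions, 84.0% had another within 50 kb, and the median distance to the next was 13.1 kb. For the 4211 distal regions called by the 3 EPDC lists and no epicardial list, these values were 33.6% and 111 kb. Of the epicardium-only regions, 763 (25.1%) had another within 50 kb, and the median distance to the next was 145 kb. Within 100 kb of a TSS, Ltbp1 (which binds latent TGF-β), Bcar3 (an adaptor of integrin signalling) and Kank1 (an adaptor of adhesions) had 6 each, out of 14, 21 and 30 distal epicardial regions. Fmod, Mast4, Bmpr1b, Arhgap26, Syne2, Pcnx2 and Spats2l had 5 each. All 5 of Syne2, which encodes the nuclear envelope protein nesprin-2, and all 5 of Arhgap26, a GTPase-activating protein, were higher at E17.5, with log2 changes from 1.41 to 2.17 and from 0.64 to 2.08. At Ltbp1, 3 were higher and 1 was lower, from -1.03 to 1.95. At Bmpr1b, a BMP receptor, 1 was higher and 1 lower. The promoters of 9 of these 10 genes were called in all 9 lists. That of Pcnx2 was called in 5 epicardial lists and 1 EPDC list.

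Several motifs stood in a larger share of epicardium-only than of EPDC-only regions, and others in a smaller share. The rule used no sequence. Each motif was counted once per region, as an exact match on either strand of the window of 100 bp on each side of the summit. Intervals are 95% Wilson intervals, which cover counting error over regions and make no test. AP-1 motifs, bound by dimers of the FOS and JUN families, stood in 874 epicardium-only regions, or 28.75% (27.2 to 30.4%). They stood in 16.5% (16.1 to 16.96%) of shared regions, in 14.6% of all distal regions and in 6.08% (5.40 to 6.84%) of the 4211 distal regions that all 3 EPDC lists and no epicardial list called. Among regions of the 6 epicardial lists, the AP-1 share was 22.3% where 1 EPDC list called them and 17.8% where 2 did. It was 27.0% in the 2022 regions called by 5 epicardial and no EPDC list.

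The CAGGTG E-box, which ZEB and SNAI repressors and other factors can bind, stood in 16.5% of epicardium-only, 9.22% of shared and 3.61% of EPDC-only regions. Among regions of the 6 epicardial lists, its share was 16.3% where 1 EPDC list called them and 15.7% where 2 did. It was 15.2% in regions called by 5 epicardial and no EPDC list, so this share was not particular to epicardium-only regions. The palindromic CAGCTG E-box had the reverse order, at 17.47%, 22.5% and 26.2%. The TEAD motif, through which YAP and TAZ act, stood in 12.4% of epicardium-only, 9.39% of shared and 5.65% of EPDC-only regions. The KLF motif stood in 4.47%, 2.47% and 1.14%. T-box motifs (AGGTGTGA) were rare, with 45 epicardium-only regions (1.48%), 165 shared regions (0.619%) and 5 EPDC-only regions (0.119%). The GATA motif AGATAAG stood in 9.61%, 6.89% and 6.08%.

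Motifs scarcer in epicardium-only than in EPDC-only regions were MEIS (CTGTCA, 17.9% and 28.02%), SOX (CATTGTT, 1.68% and 3.66%) and EBF (TCCC and GGGA with 2 bases between, 0.296% and 2.04%). The part of the CTCF motif searched, AGGGGGCG, stood in 17 epicardium-only regions (0.559%), 2.13% of shared and 0.807% of EPDC-only regions. The WT1 motif GCGTGGGAG was rare in every set, at 0.493%, 0.476% and 0.380%. The ETS motif ACCGGAAG stood in 0.0987% of epicardium-only, 0.472% of shared and 0.404% of EPDC-only regions, and the CAGATG E-box in 18.3%, 18.2% and 21.8%. Base composition moved little: median GC content was 49.3% in epicardium-only, 50.7% in shared and 48.3% in EPDC-only windows, and its part in these shares was not tested.

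**Figure D5:**
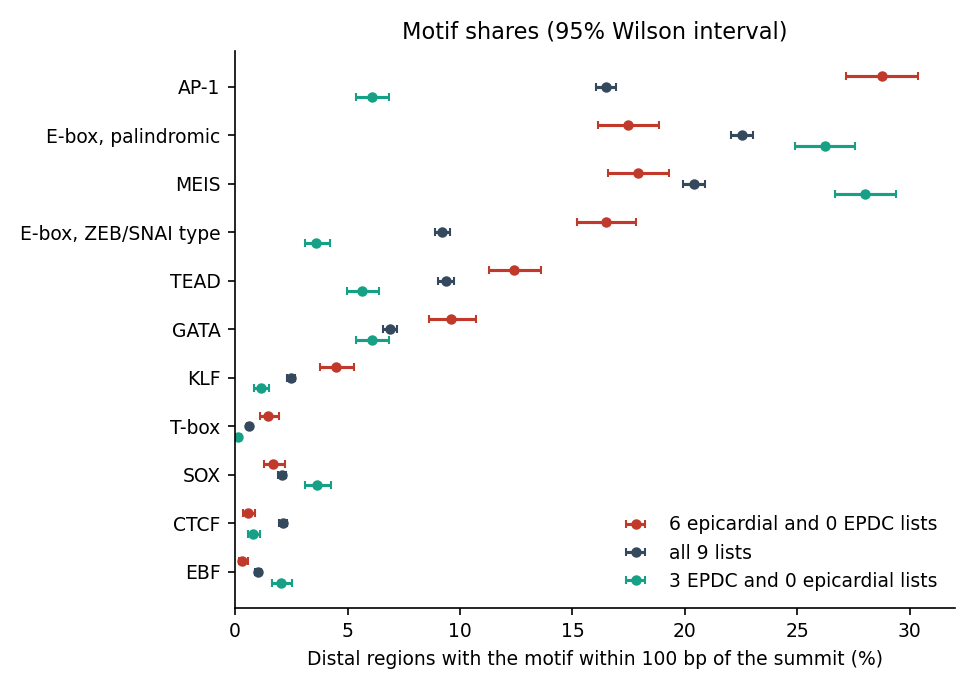
Share (%) of distal regions with each motif within 100 bp of the summit, for epicardium-only regions (red, n = 3040), regions called in all 9 lists (dark, n = 26671) and regions called in the 3 EPDC lists alone (green, n = 4211); the ZEB/SNAI type of E-box is CAGGTG, and bars are 95% Wilson intervals. AP-1 falls from 28.75% to 6.08% between the red and green sets, while the palindromic E-box, CAGCTG, rises from 17.47% to 26.2%.

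At least 1 of AP-1, TEAD, CAGGTG, T-box and KLF, motifs chosen after their shares were seen, stood in 1559 epicardium-only regions (51.3%), 33.6% of shared and 15.6% of EPDC-only regions. At least 2 of the 5 stood in 337 (11.1%), 4.33% and 0.974%. Matches that shared bases counted as separate motifs, as for AP-1 and CAGGTG at Lmo7. The same holds for CAGGTG and T-box where a C precedes AGGTGTGA, so not all of these counts are of separate sites.

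Within the set, the shares also differed by stage, again as a description without a test. Of the 874 epicardium-only regions with AP-1, 494 (56.5%) were higher at E17.5, and of the 2166 without it, 930 (42.9%) were. KLF gave 86 of 136 (63.2%) with and 1338 of 2904 (46.1%) without. TEAD went the other way: 45 of 377 regions with it (11.9%) were lower at E17.5, against 169 of 2663 (6.35%) without. Put by stage, AP-1 stood in 34.7% (32.3 to 37.2%) of the regions that rose and 23.4% (18.2 to 29.5%) of those that fell, and TEAD in 11.03% (9.502 to 12.8%) and 21.03% (16.1 to 27.0%). Regions with AP-1 were also stronger, with a median mean percentile of 47.2 against 38.7 without, and the part of strength in this difference was not tested.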

How the data were processed

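Bulk ATAC-seq peak lists of 6 epicardial and 3 EPDC libraries were analysed. Per the methods and the labels, the authors used the nf-core atacseq pipeline (genome mm10) for paired reads, removed duplicate, multimapped, blacklisted and mitochondrial reads, and called peaks (MACS2 2.2.9.1, q-value limit 0.01). The EPDC lists hold some mitochondrial and unplaced intervals that the epicardial lists lack, so this filtering may not have been the same for both. Peaks were called on fragments, so coverage counts whole fragments and not cut sites alone. The deposited lists give, for each summit, a fold enrichment over local background, which is a ratio, and a −log10 p-value and −log10 q-value. These deposited columns are not scaled between libraries. The authors' own differential test used reads and was not repeated, and depth in reads is not given by the lists.

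Intervals were pooled on chromosomes 1 to 19 and overlaps merged, and a list called a region if it overlapped by at least 1 bp. TSSs came from GENCODE M21 and sequence from RefSeq GRCm38.p6, the same build as mm10. Groups came from the labels. Technical replicates of 1 sample shared 1 list and counted once. Epicardial stages were compared by limma 3.58.1 (trend, quantile normalized, no covariate) in R 4.3.3. Since the libraries are pools of littermate hearts, p-values measure the spread between pools. Regions, gene lists and motifs were chosen with earlier results of these data known. Genes named are those of the mesothelial, keratin and junction lists with a region of the set nearest to them; the 10 strongest regions; the 10 genes with most regions within 100 kb; the 5 largest rises and falls at an adjusted p under 0.05 with no overlap in percentile between stages; and the strongest region of each other list. Gene lists and motifs were summarised as counts, without set tests. Alternatives changed the q-value threshold, list length, window, TSS distance and set, overlap, measure, filter and library set, 1 at a time. The result for 1 of the marker promoters examined is not reported here. The rule, the stage fit and the motif search were tested on simulated data. Python 3.11.15 with pandas 2.3.3 was used.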

Additional observations from a re-analysis of the deposited data

How the results depend on the processing

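The number of epicardium-only regions stayed within 1.5 times of 3040 under 14 of 15 alternatives and was 4706 without E13.5 EPDC replicate 2. Leaving out each of the 9 libraries in turn gave between 3099 and 4706 regions. On the stage contrast, the 1424 rises became 913 on the rank percentile, and leaving out each epicardial library gave between 1258 and 1427. The 214 falls became 359 on the rank percentile, 127 when regions called by at least 3 of 6 libraries were tested, 135 when every library had a −log10 q of at least 5 (which tested 2143 of the regions), and 350 when the set was drawn without E13.5 EPDC replicate 2, which adds regions. Leaving out each epicardial library gave between 163 and 207 falls. The cause of the shifts on the rank percentile was not tested, though all 53848 regions tested moved by a median of -3.35 percentile points on that scale. Equal replicate numbers did not pair the samples: deviations of libraries with the same number correlated at -0.02, 0.04 and -0.06. With the replicate block, 1432 regions were higher and 219 lower.

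For the named regions, 460 of 503 alternative values kept their direction and side of the threshold, 28 lost a call, 3 gained one and 12 turned in direction. The turned values were those of Tbx18 (-0.10 on scores scaled to their sum, -7.01 percentile points, and from -0.20 to 0.33 with each library left out), Bnc1 (-0.23 on fold enrichment), Ocln (0.58 with at least 3 of 6 calls, and from -0.62 to 0.072 with each library left out), Nr2f2 (-0.055 on fold enrichment and -2.55 percentile points), Ube2q2 (-1.72 percentile points), Myh6 (0.46 with at least 3 of 6 calls) and Vgll3 (-3.46 percentile points). Of these, only Bnc1 had a call on the main scale. With 250 bp on each side of the summit, AP-1 stood in 33.6% of epicardium-only, 21.5% of shared and 9.97% of EPDC-only regions, and in windows at the region centre in 20.5%, 10.1% and 5.11%. Of 52 alternative motif shares, 32 left the interval of the main share. With 250 bp on each side, CAGGTG stood in 35.8% of epicardium-only and 14.6% of EPDC-only regions, and T-box in 3.68% and 1.02%, a ratio of 3.61 in place of 12.47. The order of these 2 sets turned for 4 of 26 motifs with the wider window and for 3 at the region centre (NFI, RUNX, C/EBP, FOX or GRHL). The shares of the 12 gene lists counted within 100 kb of a TSS stayed inside the 95% interval of the main share. An absent call limits what a list can show: depth, in reads, is unknown for these files.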
